A study of Mus musculus with 6 samples.

Results

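Lysosomal hydrolases and lysosomal membrane genes were followed in whole proximal colon of 6 mice, 3 wild-type and 3 heterozygous for a gene trap in Mthfd1, a cytosolic enzyme of folate one-carbon metabolism. A list of 33 named genes was taken, with every probe set whose platform symbol was 1 of them. This gave 54 probe sets for 32 genes, of 22626 probe sets and 12393 named genes on the array, and Arsb, a lysosomal sulfatase, had none under its symbol, so its expression was not analysed here. All mice were 8 weeks old and had eaten the AIN-93G control diet for 5 weeks from weaning. The heterozygous group came from gene-trap mice of BayGenomics, a collection of trapped embryonic stem cell lines. The labels do not give the strain, the sex or where in Mthfd1 the trap lies. Each array was titled as a separate biological replicate, and p-values measure the spread between these arrays.

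The lysosome is the acid compartment in which proteases, glycosidases, lipases and nucleases degrade material delivered by endocytosis, phagocytosis and autophagy. Its enzymes travel from the Golgi by the mannose 6-phosphate route or with carriers such as Scarb2, and its membrane is lined by the heavily glycosylated Lamp1 and Lamp2. Most of these genes are active in nearly every cell, and many carry an E-box element read by TFEB and its relatives. A few are richer in 1 cell type: Ctss and Ctsc in macrophages and dendritic cells, and Ctse in surface epithelium. In the intestine, lysosomes serve both the turnover of epithelial cells and the digestion of antigens and dying cells by phagocytes.

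Mthfd1 itself read 949.9, 838.6 and 881.4 in wild-type replicates 1 to 3 and 453.1, 509.6 and 549.4 in the heterozygous replicates at its brightest probe set. Every heterozygous array lay below every wild-type array. Epithelial genes, 13 of 14 markers on the array, summed to 104966 to 117247 in wild-type and 101597 to 112190 in heterozygous colon, with overlap. None was at 0, but this held for every marker list used here and does not identify the tissue. Arrays differed within each genotype in genes of neighbouring gut and muscle. The sum of 8 ileal enterocyte genes ran from 9345.8 to 31605 in wild-type and from 11458.8 to 26697.4 in heterozygous colon. Among them Apoa1 ran from 29.5 to 7711.8 in wild-type and from 43 to 3949.1 in heterozygous colon, highest in replicate 2 of each. The sum of 6 smooth muscle genes was highest in wild-type replicate 3, at 51283, against 35975.8 to 44978.9 on the other arrays.

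Promoter sequences are shown first for the members on which the genotype values turn and for those that hold the E-box of lysosomal genes. RefSeq promoter windows (GRCm38.p6, 250 bases before to 50 after the transcript start) were matched for 28 of the 33 genes, Arsb included. No window was used for Asah1, Ctsb, Ctse, Ctsh and Npc1. The palindromic core CACGTG was found in 9 of these 28 genes (32.1%: Arsa, Ctsa, Ctsd, Ctsl, Gaa, Gla, Glb1, Lamp1 and Lgmn), against 8.09% of 27025 genes, or 29% of the members' windows against 7.15% of 32851 windows. The longer TCACGTGA, which contains the shorter core, was found in Ctsa, Ctsd and Gla, 10.7% against 1.12% of genes and 0.974% of windows. Both strands were searched, and both strings of letters read the same on either strand. The clearest examples are given below 5′ to 3′, with TCACGTGA in capitals in the first 3 and the 4 copies of CACGTG in capitals in Lamp1.
Ctsa (chr2:164833757-164833786, plus strand): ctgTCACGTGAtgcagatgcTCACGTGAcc
Ctsd (chr7:142387908-142387937, minus strand): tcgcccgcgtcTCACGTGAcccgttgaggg
Gla (chrX:134601215-134601244, minus strand): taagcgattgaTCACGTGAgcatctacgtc
Lamp1 (chr8:13159091-13159160, plus strand): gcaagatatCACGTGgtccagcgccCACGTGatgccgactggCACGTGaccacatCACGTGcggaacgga

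The 9 genes with a CACGTG in the window had log2 differences of -0.22 to 0.15 between genotypes (median -0.06). The genotypes did not overlap for 1 of them, Ctsa, and 0 had an unadjusted p under 0.05 (limma). The 18 measured genes with a window and no CACGTG ran from -0.60 to 0.28 (median 0.04), with 7 that did not overlap and 4 with an unadjusted p under 0.05. Over all 8241 genes tested, 10.7% did not overlap and 5.4% had such a p. The difference between genes with and without the motif was not tested. The members with the smallest p and both macrophage-type cathepsins are shown by the 250 bases before the start. In Dnase2a and Stard3, the pair with the lowest p, none of 4 searched motifs was present. A pair of interferon-type motifs was added to the search after the values were seen. The core of an interferon-stimulated response element, GAAA and GAAA with any 2 bases between them, was found in Ctss, in capitals at -21, and in Lamp1, with 3.44% of all windows holding it. TTCNNNGAA, the STAT element, was found in Ctsc, in capitals at -236, and in Arsa, with 8.3% of all windows holding it. A match describes these letters and does not show binding.
Dnase2a (chr8:84908505-84908754, plus strand): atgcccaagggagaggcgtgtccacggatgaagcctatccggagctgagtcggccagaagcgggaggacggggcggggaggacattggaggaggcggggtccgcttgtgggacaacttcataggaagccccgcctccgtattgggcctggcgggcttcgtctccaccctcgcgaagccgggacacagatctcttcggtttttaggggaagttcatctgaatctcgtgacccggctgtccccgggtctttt
Stard3 (chr11:98358118-98358367, plus strand): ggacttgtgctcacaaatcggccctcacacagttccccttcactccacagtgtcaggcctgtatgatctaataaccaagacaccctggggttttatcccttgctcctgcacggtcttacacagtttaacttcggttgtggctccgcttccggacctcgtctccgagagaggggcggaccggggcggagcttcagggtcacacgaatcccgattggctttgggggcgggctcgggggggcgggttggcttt
Ctss (chr3:95526536-95526785, plus strand): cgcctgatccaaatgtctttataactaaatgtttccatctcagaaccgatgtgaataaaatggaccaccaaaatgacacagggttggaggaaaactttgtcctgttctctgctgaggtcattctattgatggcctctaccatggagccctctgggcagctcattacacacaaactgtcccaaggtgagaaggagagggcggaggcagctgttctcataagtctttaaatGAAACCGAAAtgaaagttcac
Ctsc (chr7:88277835-88278084, plus strand): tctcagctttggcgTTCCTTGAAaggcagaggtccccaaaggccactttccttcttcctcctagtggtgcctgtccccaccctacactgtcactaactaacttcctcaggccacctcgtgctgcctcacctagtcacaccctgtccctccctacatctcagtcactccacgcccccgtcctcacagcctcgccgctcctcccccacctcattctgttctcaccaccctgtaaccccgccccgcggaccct

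Most lysosomal genes had nearly the same level in both genotypes. A difference is given on the log2(intensity + 16) scale as heterozygous minus wild-type, from 1 limma fit over all 13576 probe sets above a filter on low values, and a gene is read from its brightest probe set. Among the 32 genes, 17 differences were positive and 15 negative, with a median of 0.01, the same as the median of all 8241 genes tested to 2 decimals. For 25 of the 32 the difference was under 0.2 in size. The median size was 0.112 over the 32 genes and 0.107 over all genes, so small differences were not particular to this list. The 95% interval lay within 1.5-fold in either direction for 28 of 32 (87.5%), against 73.4% of all genes. In whole tissue, fewer cells of a type and less RNA per cell cannot be told apart.

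No lysosomal gene passed the threshold. A limma adjusted p under 0.05 was reached by 0 of the 13576 probe sets (0%) and an unadjusted p under 0.05 by 772 (5.69%), and the 32 lysosomal genes had limma adjusted p of 0.3999 to 0.999. An unadjusted p under 0.05 was found for 4 of the 32 (12.5%), against 5.4% of all genes: Ctss was higher, and Ctsk, Dnase2a and Stard3 were lower. The count was 2 without heterozygous replicate 2. The 3 arrays of each genotype did not overlap for 9 of 32 genes (28.1%), against 10.7% of all genes. In 6 of these the heterozygous arrays were higher (5.59% of all genes), namely Ctsa, Ctsc, Ctsh, Ctss, Lamp2 and Scarb2, and in 3 they were lower (5.06% of all genes), namely Ctsk, Dnase2a and Stard3. The list was made with earlier results of these arrays known, so both shares are a description.

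**Figure D1:**
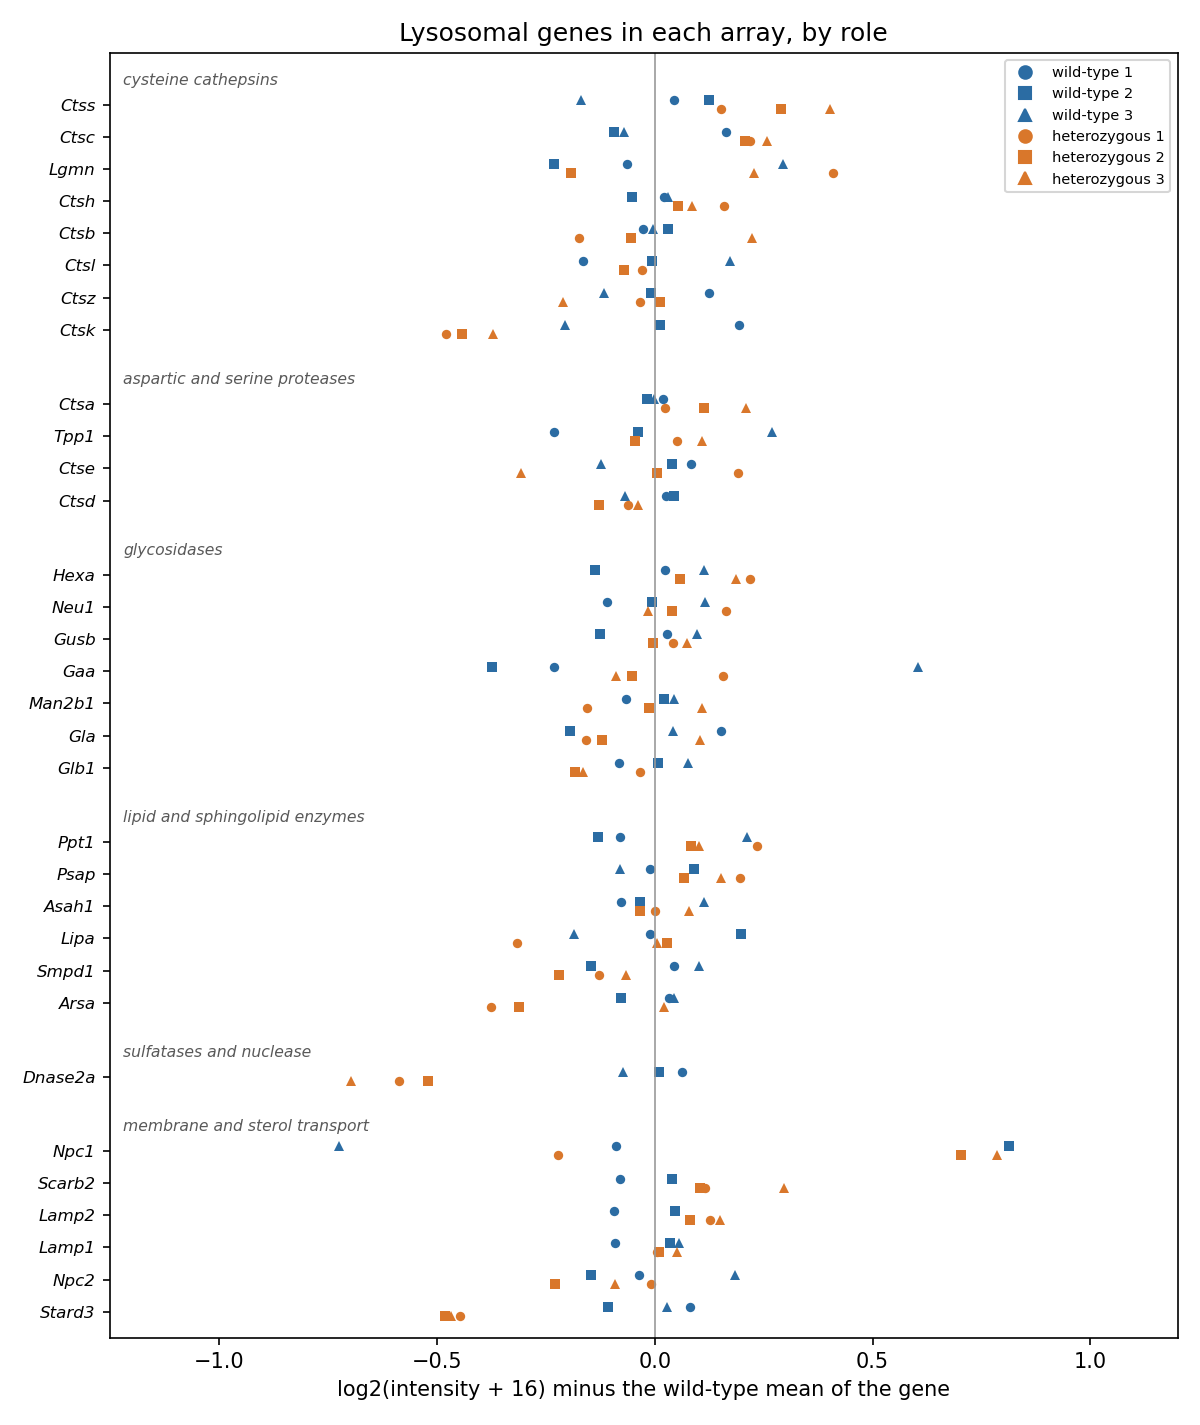
Each of 32 lysosomal genes in each of 6 arrays, as log2(intensity + 16) minus the gene's wild-type mean, grouped by role and sorted by the genotype difference. Blue points are wild-type and orange heterozygous arrays, with the circle, square and triangle for replicates 1, 2 and 3. Most genes lie around 0 in all arrays, Dnase2a, Stard3 and Ctsk lie to the left in all 3 heterozygous arrays, and Npc1 has the widest spread.

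Cysteine cathepsins are papain-like proteases, and the 8 measured here split by direction (4 positive, 4 negative, median log2 difference 0.05). Ctss (chr3:95526786-95556405), which trims the invariant chain in antigen-presenting cells, read 3938.1, 4164.3 and 3393.4 in wild-type and 4242.4, 4670.8 and 5047.6 in heterozygous colon. All 3 heterozygous arrays lay above the wild-type arrays, with heterozygous replicate 1 close to wild-type replicate 2. The means were 3832 ± 396 and 4654 ± 403 (SD, n = 3 each), a log2 difference of 0.28 (SE 0.11, limma adjusted p = 0.813). Without 1 array it ran from 0.20 to 0.35. The exact permutation p was 0.1, the smallest that 3 against 3 arrays can give, as for all 9 genes without overlap.

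Ctsc, which activates the serine proteases of granule-bearing immune cells, read 2244.7, 1874 and 1903.8 in wild-type and 2331.3, 2311.6 and 2394.8 in heterozygous colon. The heterozygous arrays lay close together and above the wild-type arrays, of which replicate 1 was nearest. The difference was 0.23 (SE 0.11, limma adjusted p = 0.885). Ctsh, a cathepsin with aminopeptidase activity, read 783, 742.8 and 788.5 against 862.5, 801.4 and 819.6, also without overlap. Its difference of 0.10 (SE 0.11) was smaller than that of either macrophage-type cathepsin, and the differences were not tested against each other.

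Ctsk (chr3:95499210-95509387), the collagen-degrading cathepsin best known from osteoclasts, lies 17.4 kb from Ctss and differed the opposite way. It read 175.7, 153 and 129.3 in wild-type and 104.3, 107.3 and 113.6 in heterozygous colon. Wild-type replicate 3 came nearest to the heterozygous arrays. The means of 153 ± 23.2 and 108 ± 4.75 (SD, n = 3 each) gave a log2 difference of -0.43 (SE 0.17, limma adjusted p = 0.817). Ctsk was dim, at percentile 45.8 of all probe sets against a filter at 40. Fibroblast markers, a list of 6 genes with none at 0, summed to 18400.5 to 23910.5 in wild-type and 18579 to 21811.1 in heterozygous colon. The groups overlapped in that sum, and 3 of the markers had positive and 3 negative differences. Their part in the Ctsk value was not tested.

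Ctsb, Ctsl, Ctsz and Lgmn overlapped between genotypes. Ctsb and Ctsl, endopeptidases of most cells, differed by -0.0011 (SE 0.11) and by -0.06 (SE 0.10). Ctsz, a carboxypeptidase, differed by -0.08 (SE 0.11) at its brightest probe set and by 0.05 and -0.04 at the others. Lgmn, the asparaginyl endopeptidase that processes other cathepsins, was more variable, from 746.8 to 1081 in wild-type and from 767 to 1172.6 in heterozygous colon.

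**Figure D2:**
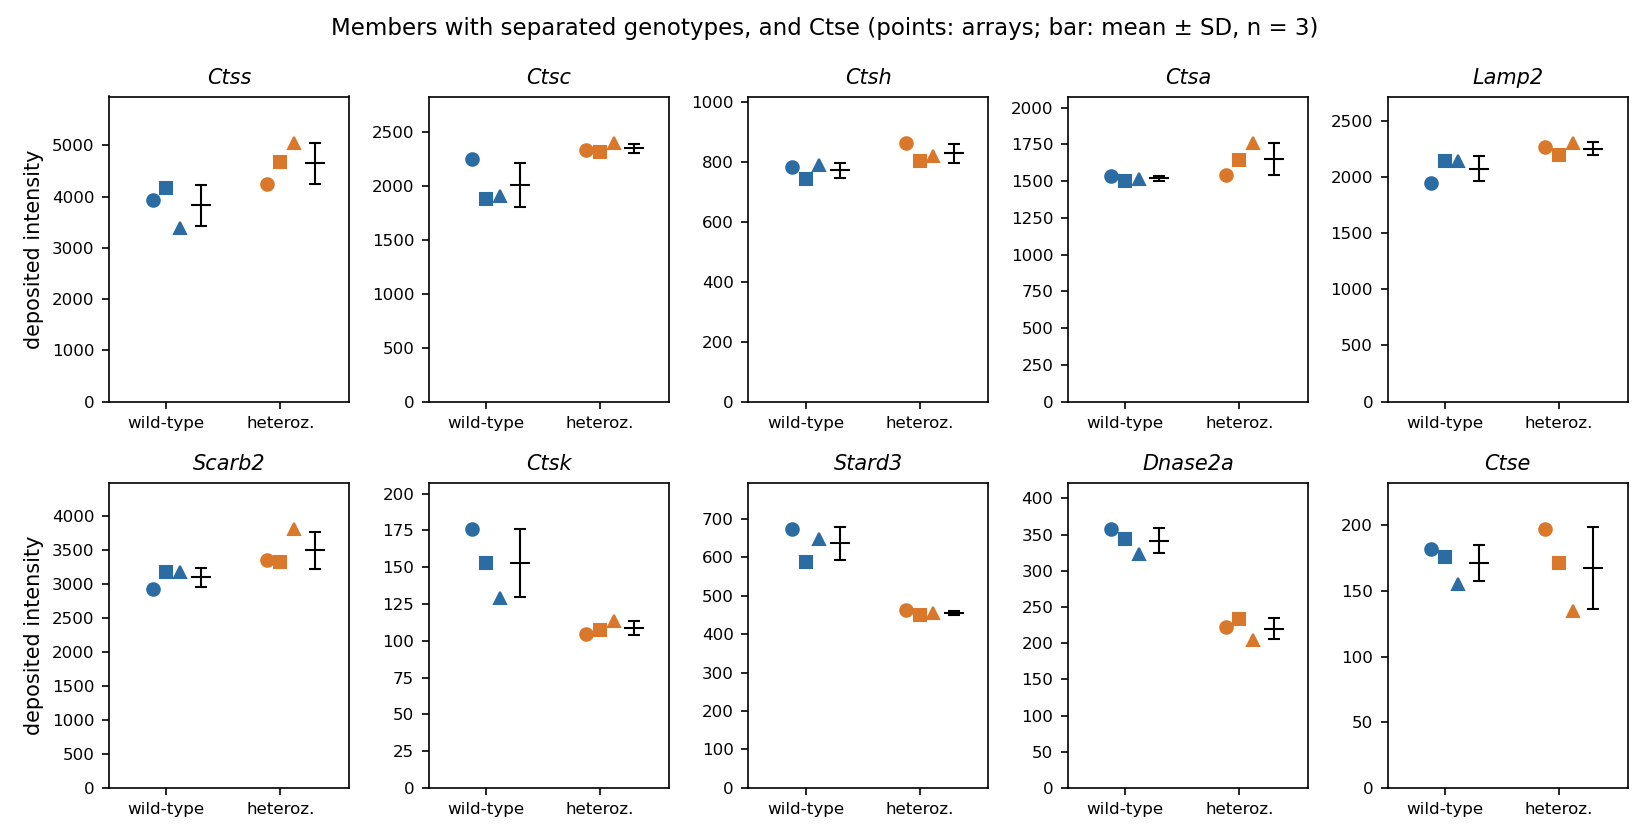
Deposited intensity of the 9 lysosomal genes whose genotypes did not overlap, and of Ctse, in each array, with axes starting at 0. Circles, squares and triangles are replicates 1, 2 and 3 of wild-type (blue) and heterozygous (orange) colon, and bars are mean ± SD (n = 3). Ctss, Ctsc, Ctsh, Ctsa, Lamp2 and Scarb2 lie higher and Ctsk, Stard3 and Dnase2a lower in heterozygous arrays, and Ctse overlaps.

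Among the aspartic and serine proteases the median difference was 0.00 over 4 genes. Ctse (chr1:131638314-131675507), the aspartic protease of surface epithelium, read 181.7, 175.8 and 155.4 in wild-type and 196.9, 171.2 and 134.9 in heterozygous colon at its brighter probe set. Heterozygous arrays held both the highest and the lowest value. The difference was -0.04 (SE 0.17, limma adjusted p = 0.991) and took the other sign when heterozygous replicate 3 (0.10) or wild-type replicate 1 (0.0043) was left out. Its second probe set read 148.2, 125.8 and 212.5 against 144.3, 121 and 129.3 (-0.25, SE 0.20), where wild-type replicate 3 stood above the rest.

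Ctsa, the carboxypeptidase that also protects Neu1 and Glb1, read 1537.7, 1499.5 and 1516.9 in wild-type and 1543.6, 1641.8 and 1759 in heterozygous colon. Heterozygous replicate 1 exceeded wild-type replicate 1 only slightly. The difference was 0.12 (SE 0.10, limma adjusted p = 0.936). Ctsd, the main aspartic protease of lysosomes, overlapped at -0.08 (SE 0.10), and Tpp1, an aminopeptidase, overlapped at 0.04 (SE 0.14).

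The macrophage-type cathepsins were set against the epithelial one within each array as the mean log2 value of Ctss and Ctsc minus that of Ctse, relative to the wild-type mean. Wild-type arrays lay at 0.02, -0.02 and 0.00 and heterozygous arrays at -0.0049, 0.24 and 0.64. Heterozygous replicate 1 fell among the wild-type arrays, so the groups overlapped. The mean difference was 0.29. Leaving out heterozygous replicate 3 gave 0.12, and leaving out replicate 1 of that group gave 0.44. Relative to the wild-type mean, Ctse alone lay at 0.19, 0.0045 and -0.31 in heterozygous replicates 1 to 3. The mean of Ctss and Ctsc lay at 0.19, 0.25 and 0.33, so much of the spread between these arrays came from Ctse. With 6 broadly expressed cathepsins (Ctsa, Ctsb, Ctsd, Ctsh, Ctsl and Ctsz) beside Ctse as the comparator, wild-type arrays lay at 0.09, 0.01 and -0.10 and heterozygous arrays at 0.17, 0.26 and 0.34, without overlap. The 6 broad cathepsins on their own had a mean difference of 0.00.

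Markers of other cells were read beside Ctss and Ctsc, and epithelial markers beside Ctse. Of 13 epithelial markers tested, 9 had negative and 4 positive differences, with a median of -0.05, and 0 passed the threshold. Krt18 at -0.26 and Slc26a3 at -0.24 had the smallest p. Krt18 was the 1 epithelial marker without overlap, lower in heterozygous colon, against 5.06% of all genes. All 18 macrophage and dendritic cell markers were on the array and none was at 0, and their sum ran from 7430.9 to 8581.9 in wild-type and from 8180.5 to 11212.4 in heterozygous colon, where heterozygous replicate 1 overlapped with wild-type. The mean log2 value over the list, relative to the wild-type mean, did not overlap. It lay at -0.01, 0.04 and -0.03 in wild-type and 0.07, 0.20 and 0.41 in heterozygous arrays. Of 16 tested, 14 had positive differences, with a median of 0.26. The genotypes did not overlap for 6 of the 16, all higher, against 5.59% of all genes. Itgax, an integrin of dendritic cells, at 0.60 and Fcer1g, an Fc receptor subunit, at 0.53 had the smallest p, and 0 of 16 passed the threshold. The 2 negative markers among those tested were Cd68 at -0.13 and Mrc1 at -0.04, and both overlapped between genotypes. Below the filter, Itgam averaged 40.1 in wild-type and 28.9 in heterozygous colon and Ccr2 61.3 and 80.2, both with overlap. Interferon-response genes, 14 of 16 on the array with none at 0, summed to 4844 to 5067.9 in wild-type and 7086.9 to 12148.3 in heterozygous colon, without overlap, and 12 of 12 tested were positive (median 0.79). T-cell markers, 4 of 5 on the array with none at 0, summed to 254.6 to 337.7 in wild-type and 299.3 to 744.1 in heterozygous colon. Of these 4, 2 were below the filter, so the sum rests partly on dim probe sets. In Ctss, the macrophage sum, the interferon sum and the T-cell sum, heterozygous replicate 1 was the lowest and replicate 3 the highest of the heterozygous arrays. Ctsc did not share that order, since its lowest heterozygous value was in replicate 2. The part of all these markers in the Ctss, Ctsc and Ctse values was not tested.

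**Figure D3:**
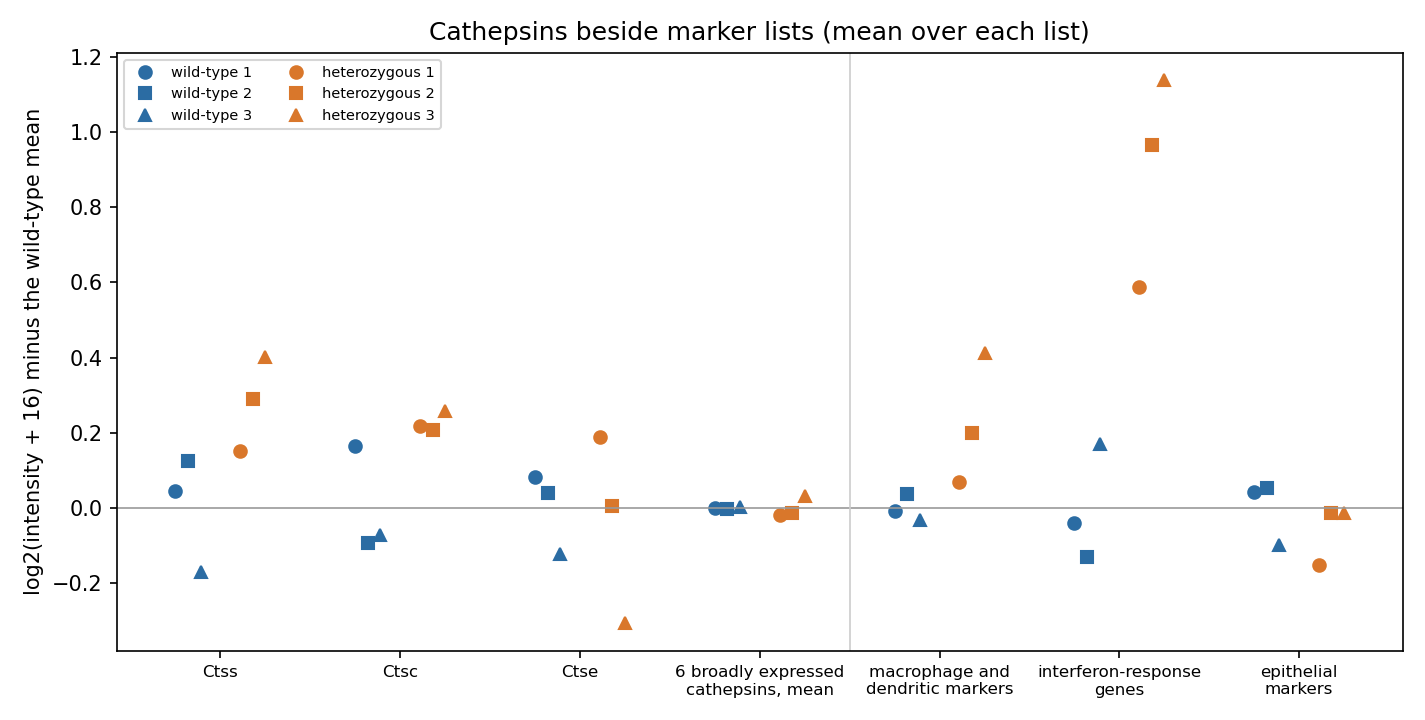
Ctss, Ctsc, Ctse and the mean of 6 broadly expressed cathepsins, left, beside the mean of 3 marker lists, right, in each array as log2(intensity + 16) minus the wild-type mean. Blue is wild-type and orange heterozygous, with the circle, square and triangle for replicates 1, 2 and 3. Interferon-response genes lie at 0.59, 0.97 and 1.14 in the heterozygous arrays and macrophage and dendritic markers at 0.07, 0.20 and 0.41, whereas the broad cathepsins stay near 0.

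Glycosidases strip sugars from glycoproteins, glycolipids and glycogen, and the genotypes overlapped for all 7 measured here (4 positive, 3 negative, median 0.01). Hexa, a subunit of the hexosaminidase that degrades gangliosides, had the largest difference in size at 0.15 (SE 0.11), with 2012.4, 1800.2 and 2145.2 in wild-type and 2306.7, 2062.8 and 2256.4 in heterozygous colon. Glb1, the acid beta-galactosidase, differed by -0.13 (SE 0.12). Gusb, beta-glucuronidase, and Man2b1, an alpha-mannosidase, differed by 0.04 (SE 0.12) and -0.02 (SE 0.11). Gla, alpha-galactosidase, and Neu1, a sialidase, differed by -0.06 (SE 0.15) and 0.06 (SE 0.11). Gaa, the acid glucosidase of glycogen, was set by 1 array: wild-type replicate 3 read 493.6 and the other 5 arrays 242.7 to 357.3. Its second probe set read 290.6 in that array, within the 244.5 to 307.1 of the others.

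Enzymes and the activator of lipid breakdown likewise overlapped for all 6 genes (3 positive, 3 negative, median -0.04). Psap, the precursor of the saposins that present sphingolipids to hydrolases, differed by 0.14 (SE 0.08) and by 0.20 (SE 0.11) at its dimmer probe set. Ppt1, which removes palmitate from proteins, differed by 0.14 (SE 0.13), and Asah1, acid ceramidase, by 0.01 (SE 0.10). Smpd1, acid sphingomyelinase, differed by -0.14 (SE 0.12). Arsa, which desulfates sulfatide, read 487.5, 450.6 and 492 in wild-type and 363.5, 381 and 483.7 in heterozygous colon (-0.22, SE 0.14). Heterozygous replicate 3 sat at the wild-type level and the other heterozygous arrays below it. Lipa, which hydrolyses cholesteryl esters, was low in heterozygous replicate 1 at all 3 probe sets, with 163.6 at 1 of them against 325.4 to 467.6 elsewhere, and its brightest probe set differed by -0.09 (SE 0.15).

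Dnase2a (chr8:84908755-84911703), the acid endonuclease that degrades the DNA of engulfed cells, had the smallest p of the 32 genes. It read 357.2, 343.5 and 323.6 in wild-type and 221.7, 233.1 and 204.1 in heterozygous colon. All 3 heterozygous arrays lay below all wild-type arrays, with a wide gap. The means of 341 ± 16.9 and 220 ± 14.6 (SD, n = 3 each) put heterozygous colon at 64.3% of wild-type, a log2 difference of -0.60 (SE 0.13, 95% interval -0.89 to -0.32). The limma unadjusted p was 0.00100 and the adjusted p 0.3999. Over the alternatives the adjusted p ran from 0.235 to 0.9998 and the difference from -0.64 to -0.52. A single probe set measures the gene, of a kind whose probes may also match other transcripts, so no second probe set checks the value.

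Among the deoxyribonucleases, Dnase2a was 1 of 2 genes above the filter, of 6 on the array. Dnase1l1, a neutral nuclease, read 443.1, 430.5 and 483 in wild-type and 397.7, 422.3 and 414.1 in heterozygous colon. It too was lower in every heterozygous array, by a smaller amount (-0.13, SE 0.12, limma adjusted p = 0.936). Dnase1, Dnase1l2, Dnase1l3 and Dnase2b were below the filter, and all their probe sets overlapped between genotypes. Dnase2b, the other acid nuclease, read 0.8 to 5.5, and Dnase1, the secreted nuclease, 1.7 to 23.5. Dnase1l2 read 41.7 to 111 and Dnase1l3, a nuclease secreted by phagocytes, 8.3 to 136.3. Of 4 tested nucleases of other families, the mitochondrial Endog read 806, 660.4 and 637.5 against 529.9, 540.1 and 413.5, lower in every heterozygous array (-0.49, SE 0.15, limma adjusted p = 0.685). Dffa, Dffb and Pld3 overlapped. Dnase2a, Dnase1l1 and Endog, lower without overlap, stand beside 5.06% of all genes. A shared change of nucleases was not tested. Man2b1, 171 kb from Dnase2a, differed by -0.02.

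**Figure D4:**
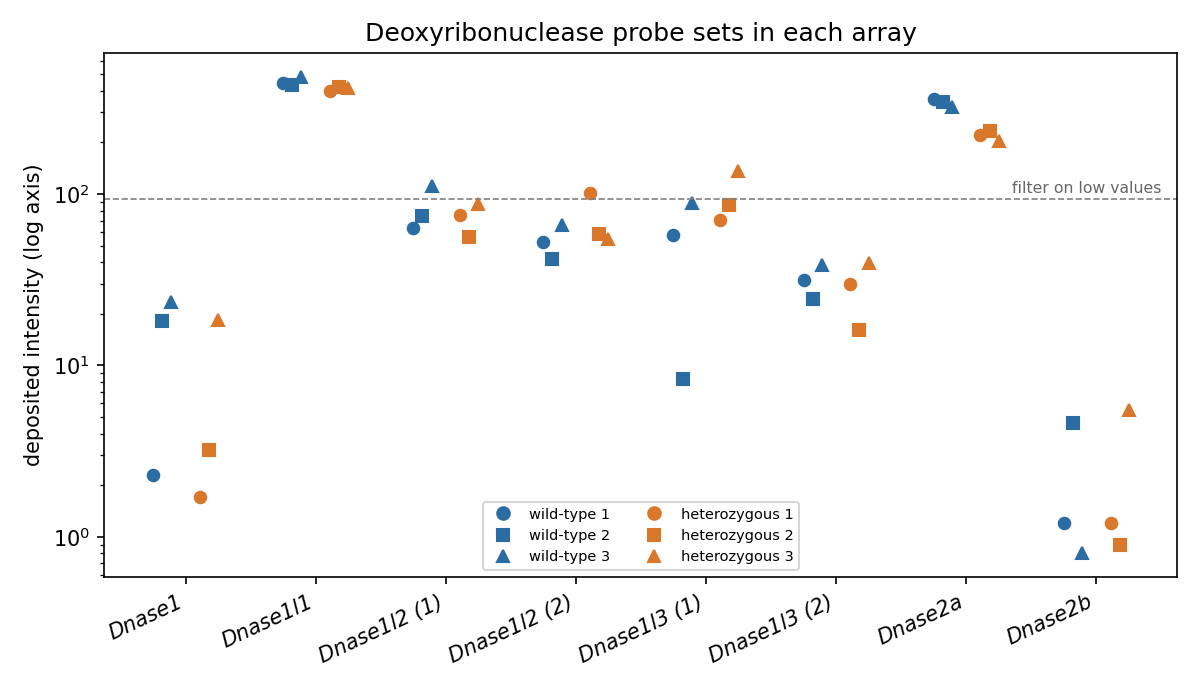
Deposited intensity of every deoxyribonuclease probe set in each array, on a log axis, with the filter on low values as a dashed line. Blue is wild-type and orange heterozygous, the circle, square and triangle are replicates 1, 2 and 3, and (1) and (2) mark different probe sets of a gene. Dnase2a reads 323.6 to 357.2 in wild-type and 204.1 to 233.1 in heterozygous arrays, and the genes below the line overlap.

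Stard3 (chr11:98358367-98381112), a cholesterol-binding protein of late endosomes that tethers them to the endoplasmic reticulum, had the next smallest p. It read 672.9, 588.7 and 648.6 in wild-type and 462, 450.7 and 455 in heterozygous colon. The heterozygous arrays differed little among themselves and lay below every wild-type array. The means of 637 ± 43.3 and 456 ± 5.70 (SD, n = 3 each) put heterozygous colon at 71.6% of wild-type (log2 difference -0.47, SE 0.12, 95% interval -0.73 to -0.20). The limma unadjusted p was 0.00294 and the adjusted p 0.603, with a range of 0.386 to 0.9998 over the alternatives.

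Of the 8 StAR-related genes tested, of 10 on the array, Stard3 was the one whose genotypes did not overlap, beside 10.7% of all genes. Stard4, a soluble sterol carrier, differed by -0.28 (SE 0.14) at both of its probe sets, with 1553.3, 1810.9 and 1985 in wild-type and 1743.5, 1307.2 and 1372.1 in heterozygous colon at the brighter. Heterozygous replicate 1 lay among the wild-type arrays there. Stard3nl, a membrane relative of Stard3 without its lipid-binding domain, differed by 0.14 (SE 0.13), and Stard13 by 0.27 (SE 0.19). Stard5, Stard7, Stard8 and Stard10 overlapped as well. Below the filter, Stard6 read 44.3, 46.7 and 35.2 in wild-type and 61.4, 53.2 and 57.2 in heterozygous colon, higher without overlap. Star, also below it, overlapped at all its probe sets.

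The structural membrane proteins differed little. Lamp1 had the smallest standard error of the 32 genes, 0.08, with 4794.5, 5230.4 and 5313.4 in wild-type and 5127.6, 5144.9 and 5295.2 in heterozygous colon (0.02). Lamp2, which also takes part in autophagy, read 1940.4, 2138.4 and 2138.1 against 2262, 2190.9 and 2299.8 at its brightest probe set, without overlap (0.12, SE 0.10, limma adjusted p = 0.928). Its other 3 probe sets overlapped, at 0.01, -0.13 and -0.05, and the mean of its probe sets gave -0.01. Scarb2, which carries beta-glucocerebrosidase to the lysosome, read 2924.7, 3176.5 and 3177.3 against 3348, 3321.5 and 3800.9 (0.17, SE 0.09, limma adjusted p = 0.910). Its second probe set differed in the same direction, at 0.27 (SE 0.19), with overlap.

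The cholesterol exporters of the lysosome, Npc1 and Npc2, overlapped between genotypes. Npc1, the membrane transporter, read 224.5, 433.1 and 138.8 in wild-type and 203.1, 400.2 and 424.5 in heterozygous colon. Each genotype held low and high arrays, and the ratio of highest to lowest intensity, with 16 added to both, was 2.90 against a median of 1.28 over the 32 genes. The difference of 0.42 (SE 0.38, the widest of the 32) depended on single arrays, with 0.06 when wild-type replicate 3 was left out and 0.83 when replicate 2 of that group was. Npc2, the soluble sterol carrier, differed by -0.11 (SE 0.11) and lies 8.43 Mb from Mthfd1 on chromosome 12. Lgmn, the other lysosomal gene of that chromosome in the list, lies 26.1 Mb away.

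Genes with several probe sets gave a measure of how far a value depended on the probe set. Of 13 genes with at least 2 tested probe sets, 8 had 1 sign at all of them and 5 (Ctsb, Ctsz, Gaa, Lamp2 and Tpp1) had both. The filter left out 3 of the 54 probe sets, 1 of Gla and 2 of Neu1. Of the 9 genes without overlap between genotypes, Lamp2 and Scarb2 had further probe sets, and those overlapped. The other 7 rested on a single probe set each.

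Beyond the 33 genes, 61 other lysosomal genes were tested, of 84 listed and 66 on the array: 27 were positive and 34 negative, with a median difference of -0.05 against 0.01 over all genes. None passed the threshold. An unadjusted p under 0.05 was found for 3 in each direction (3.18% of all genes higher, 2.22% lower), and the genotypes did not overlap for 5 higher and 8 lower genes (5.59% of all genes higher, 5.06% lower). Among membrane genes Laptm5, a lysosomal protein of blood cells, read 170.8, 208.2 and 262.4 in wild-type and 269.4, 362 and 297.1 in heterozygous colon (0.51, SE 0.18, limma adjusted p = 0.772). Clcn7, the chloride-proton exchanger, read 147.2, 167.4 and 166.9 against 112.2, 116.5 and 122 (-0.41, SE 0.15, limma adjusted p = 0.807). In both the groups did not overlap.

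Subunits of the V-ATPase, the proton pump that acidifies the lysosome, had 11 negative and 5 positive differences over 16 tested (median -0.08). Atp6v0a1, which had the smallest p, read 212.6, 263 and 189 in wild-type and 148.6, 111.9 and 213.6 in heterozygous colon, with overlap (-0.48, SE 0.23, limma adjusted p = 0.889). The genotypes did not overlap for 3 of the 16 subunits, all lower, against 5.06% of all genes: Atp6v0e at -0.18, Atp6v1e1 at -0.14 and Atp6v0d1 at -0.13, with limma adjusted p of 0.908, 0.916 and 0.923. In the sorting route, Gnptab, which makes the mannose 6-phosphate tag, read 310, 228.4 and 291.8 against 355.3, 396.7 and 474.9 (0.54, SE 0.16, limma adjusted p = 0.685). The other 6 tested genes of that route overlapped. Among 13 transcription factor and autophagy genes, 7 were positive and 6 negative. Atg7, the E1-like enzyme of autophagy, at -0.65 and Uvrag at -0.30 were lower in every heterozygous array, and Atg12, the ubiquitin-like conjugate, at 0.32 was higher. Their limma adjusted p were 0.7502, 0.838 and 0.752, and these 3 of 13 genes without overlap stand beside 10.7% of all genes.

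Of the cathepsins outside the 33 genes, Ctsw, a protease of cytotoxic lymphocytes, read 102.2, 102.3 and 150.6 in wild-type and 149.4, 272.8 and 314.8 in heterozygous colon (0.92, SE 0.27, limma adjusted p = 0.655). Heterozygous replicate 1 overlapped with wild-type replicate 3, and the same array was the lowest heterozygous array for the T-cell sum given above. The part of T cells in that value was not tested. Ctsf overlapped at -0.11 (SE 0.13). The cathepsin inhibitors Cst3, cystatin C, and Cstb, stefin B, overlapped at 0.16 (SE 0.10) and -0.11 (SE 0.10).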

How the data were processed

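Total RNA of 6 proximal colons was amplified, labelled with biotin and hybridised, 1 array per animal, per the labels' protocols. The authors deposited 1 intensity on a linear scale for each probe set of an array, and the submitters' processing notes name GCOS, which runs the maker's scanner, with no version or settings. The mean of each deposited array without its top and bottom 2% of probe sets was 500, so the authors' intensities share 1 scale, and a difference in total RNA per cell cannot be measured. The median intensity ran from 156.85 to 168.25.

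Of the probe sets, 64 controls were left out, and those with a mean log2(intensity + 16) below the 40th percentile were not tested. This left 13576 probe sets of 8241 genes. Genotypes were tested two-sided in limma 3.58.1 (R 4.3.3) by lmFit followed by eBayes, the variance following a trend with intensity. P-values were adjusted by Benjamini-Hochberg over all tested probe sets, at a threshold of 0.05. Adding 16 understates the folds of dim genes. A gene was its brightest probe set with 1 symbol (20380 probe sets had 1, 691 several). An exact permutation test, two-sided, was run on single values. With 3 arrays a genotype, precision is set by their number. Levels of different probe sets were not compared. The fit was tested on simulated data with known folds and noise drawn independently for each probe set and array. Shared differences between arrays, such as those in ileal and muscle genes, were not simulated.

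Named were all members, those separated or with an unadjusted p under 0.05 in full, the deoxyribonuclease and StAR-related families, and up to 3 genes of each other list by smallest p. The V-ATPase subunits Atp6v1e1 and Atp6v0d1, the macrophage markers Cd68, Mrc1, Itgam and Ccr2, and Mx1 and Mx2 were named after their values were seen. The members and lists were chosen with earlier results of these data known. Motifs were counted in RefSeq promoters of GRCm38.p6. Alternatives were another normalization, pseudocount, filter, threshold, variance model or probe set choice, array weights, a block by replicate number, and each array left out.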

Additional observations from a re-analysis of the deposited data

How the results depend on the processing

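No lysosomal gene passed the threshold under any alternative run. The 0 probe sets past it became 8 with robust variance, 4 under array weights, 7 when the mean of a gene's probe sets was used, 8 at a threshold of 0.1 and 0 to 39 with 1 array left out (39 without heterozygous replicate 1). The count of lysosomal genes with an unadjusted p under 0.05 ran from 2 to 4 with 1 array left out, and their median difference from -0.015 to 0.055 (0.055 without wild-type replicate 3). The genes behind that count changed. Over all settings only Dnase2a and Stard3 stayed under 0.05 (highest limma unadjusted p 0.0049 and 0.012). Ctss and Ctsk rose above it in some settings (up to 0.097 and 0.10). Ctsc, Arsa and Npc1 fell below it in at least 1 (down to 0.014, 0.037 and 0.030). Over 16 settings per gene, or 15 for Ctse, Ctsk and Gla, which a filter at the 60th percentile left out, 20 of the 32 genes kept 1 sign, as did Dnase2a (-0.64 to -0.55 with 1 array left out), Stard3 (-0.52 to -0.43), Ctss (0.20 to 0.35) and Ctsc (0.18 to 0.31). The sign turned for Ctsb under array weights (0.0026) and, when probe sets were averaged, for Ctsb (0.023), Gaa (-0.054), Lamp2 (-0.015) and Tpp1 (-0.053), and for Gaa with a pseudocount of 64 (-0.0018). With 1 array left out, the sign also turned for Asah1 (-0.024 to 0.071), Ctsb (-0.11 to 0.085), Ctse (-0.15 to 0.097), Ctsl (-0.14 to 0.030), Gaa (-0.18 to 0.31), Gla (-0.16 to 0.018), Gusb (-0.025 to 0.086), Lamp1 (-0.023 to 0.051), Lipa (-0.19 to 0.017), Man2b1 (-0.085 to 0.047) and Tpp1 (-0.076 to 0.17). The cause was not tested.

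With the replicate number as a block, 0 probe sets and 0 lysosomal genes passed, 4 lysosomal genes had an unadjusted p under 0.05 and their median difference was 0.01. Deviations of arrays with the same number correlated at -0.12, 0.49 and 0.04 across probe sets, so the numbers were not taken to pair the animals. Intensities come without detection calls, so no limit of detection is given for dim probe sets.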
